A study of Homo sapiens with 6 samples.

Results

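VGF, the granins and the genes that process neuropeptides were followed in human embryonic stem cells grown on laminin with or without a second laminin. The set holds 10 genes picked by name out of 60499 in the deposited tables: the granin-family precursors VGF, CHGA, CHGB, SCG2, SCG3 and SCG5, the processing enzymes PCSK1 and CPE, the peptide precursor GAL and the peptide receptor TACR1. They were chosen with results of the same coating comparison known, in which VGF and TACR1 stood among the genes with the largest differences. The coating differences of these 10 genes are therefore given as a description, without p-values. Calls stated for them record which passed the threshold of the fit and are not independent evidence. All 10 had enough counts to enter the fit across 17608 genes. TACR1 entered through its mixed-coating libraries, where its counts were higher.

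The cells were of H1, an established embryonic line, cultured for 4 days in nutristem medium on LN-521 alone or on LN-521+LN-221 (the mixed coating), with 3 wells each. LN-521 is recombinant laminin-521, present in both coatings, and LN-221 is laminin-221, present in 1 of them. The study thus used 1 cell line and wells as replicates, and the labels name the wells as biological replicates without saying whether they came from separate cultures, so the spread may be partly technical. Total RNA was sequenced at 20606450 to 26836686 estimated counts per library.

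Granins are acidic proteins that are packed, with peptide hormones and neuropeptides, into dense core vesicles, the storage granules of regulated secretion. Precursors are cut in the vesicle by prohormone convertases at pairs of basic residues, and carboxypeptidase E trims the basic residues left at the cut ends. The mature peptides are released when the cell is stimulated and act on receptors of other cells. The pathway is best known in neurons and endocrine cells, and galanin is a peptide gene also known from human embryonic stem cells.

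The libraries had the markers of their label. All 6 pluripotency markers checked (POU5F1, NANOG, SOX2, LIN28A, DPPA4 and TDGF1) were above 1 TPM (a level corrected for transcript length and library size), with a summed level of 2393 to 2634 TPM in LN-521 wells and 2255 to 2437 TPM in mixed-coating wells. Of these 6, 3 were called lower on the mixed coating (edgeR adjusted p under 0.05), NANOG at -0.73 ± 0.09, TDGF1 at -0.65 ± 0.06 and POU5F1 at -0.36 ± 0.06, and LIN28A was called higher at 0.23 ± 0.05 (log2 difference ± SE). Endoderm markers summed to 0.610 to 1.35 TPM and mesoderm markers to 0.220 to 1.01 TPM. Neuron markers, of which 6 of 7 were above 1 TPM, summed to 121 to 130 TPM on LN-521 and 137 to 139 TPM on the mixed coating, without overlap. Most of it was TUBB3, at 100.1 and 110.3 TPM, which overlapped in CPM but not in TPM and did not pass the threshold in the fit of counts (0.10 ± 0.06, SE). The neuron markers did not move together, with STMN2 called higher and DCX lower. Neuroendocrine markers (INSM1, NEUROD1, SYP, ENO2 and NCAM1) summed to 97.4 to 100.2 and 104 to 108 TPM, also without overlap, and 3 of the 5 were above 1 TPM. Most of this sum was ENO2, at 92.0 TPM on LN-521 and 99.4 TPM on the mixed coating. None of the 4 tested markers of this list was called: ENO2 was at 0.07 ± 0.06, NCAM1 at 0.16 ± 0.12, INSM1 at -0.45 ± 0.27 and SYP at -0.17 ± 0.10 (SE). The wells of ENO2 overlapped in CPM but not in TPM, those of SYP in TPM but not in CPM, those of NCAM1 in both and those of INSM1 in neither. The defining factor NEUROD1 had 0 to 12 counts per library. The part of cell state or of such cells in the results below was not tested, and in bulk RNA fewer cells with a transcript and less of it per cell cannot be told apart.

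The 10 genes spanned from the low end to the upper part of the expressed range. On LN-521, SCG3 was highest at 19.95 ± 2.61 TPM (SD, n = 3), above 77% of the tested genes by its mean over all wells, and SCG5 followed at 16.9 ± 1.92 TPM (SD, n = 3). The wells of these 2 genes overlapped in level. GAL came next at 12.5 ± 0.825, then CPE at 6.69 ± 1.18 and CHGA at 4.04 ± 0.612 TPM (SD, n = 3 each), each step without overlap of the wells. CHGB at 2.30 ± 0.297 and VGF at 2.16 ± 0.442 TPM (SD, n = 3 each) overlapped on LN-521 but not with PCSK1 below them, at 1.11 ± 0.171 TPM. SCG2, at 0.283 ± 0.0351 TPM, and TACR1, at 0.10 ± 0.0608 TPM (SD, n = 3 each), closed the order. On the mixed coating the order was the same but for the last 2, where TACR1 at 0.450 ± 0.144 TPM stood above SCG2 at 0.307 ± 0.0666 TPM (SD, n = 3 each) with overlapping wells. There VGF, at 0.983 ± 0.448 TPM, no longer overlapped CHGB and did overlap PCSK1, at 0.873 ± 0.179 TPM (SD, n = 3 each).

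**Figure D1:**
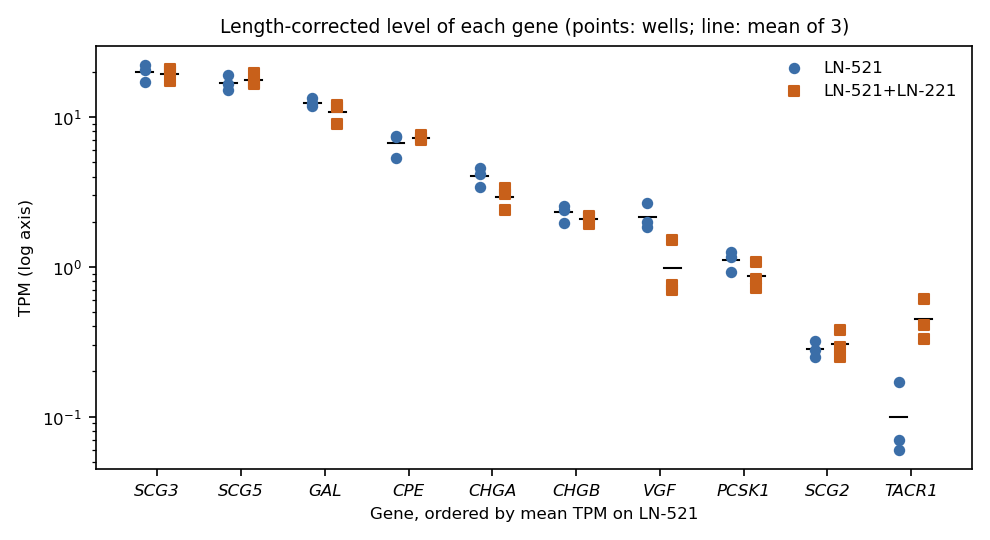
TPM on a log axis for the 10 genes, ordered by their mean on LN-521, with 1 point per well (circles LN-521, squares LN-521+LN-221) and a line at the mean of 3 wells. SCG3 and SCG5 lie between 15.2 and 22.3 TPM in every well, and VGF and TACR1 have the largest ratios between the coatings.

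Some genes of the set share a sequence feature in their promoters. RefSeq windows (build GRCh38.p14) were at hand for 7 of the 10 genes, VGF, CHGA, SCG3, SCG5, PCSK1, CPE and TACR1, with 2 starts for PCSK1. In the 250 bases before the start, the letters TGACGTCA, the cyclic AMP response element bound by CREB-family factors, were found for VGF, CHGA and PCSK1, at its upstream start. Of all 35116 RefSeq windows, 1.65% hold these letters, which read the same on both strands. The first letter lies 79 bases before the start in VGF, 54 in CHGA and 77 in PCSK1. The shorter TGACG, contained in the longer motif and searched on both strands, occurred in 6 of the 7 genes, TACR1 included, and in 21.2% of all windows. These matches are letters in a window and were not measured as bound sites. The 120 bases before each start are shown because these 4 genes include the pair with the largest differences and 2 others that hold the full motif. They run 5′ to 3′ on the strand of the gene, with TGACGTCA in capitals, and for TACR1, which lacks it, TGACG.
VGF, chr7:101165570-101165689, minus strand: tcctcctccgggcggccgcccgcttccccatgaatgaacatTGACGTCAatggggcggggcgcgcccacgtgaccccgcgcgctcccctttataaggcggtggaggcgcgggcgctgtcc
CHGA, chr14:92923030-92923149, plus strand: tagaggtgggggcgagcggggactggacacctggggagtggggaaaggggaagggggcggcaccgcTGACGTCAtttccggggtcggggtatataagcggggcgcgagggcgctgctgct
PCSK1, chr5:96433249-96433368, minus strand: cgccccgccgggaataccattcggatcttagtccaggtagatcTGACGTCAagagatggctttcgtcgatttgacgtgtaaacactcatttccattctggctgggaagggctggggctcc
TACR1, chr2:75199521-75199640, minus strand: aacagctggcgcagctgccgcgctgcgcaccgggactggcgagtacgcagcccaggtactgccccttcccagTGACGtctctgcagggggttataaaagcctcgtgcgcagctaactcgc

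Between the coatings, VGF was lower and TACR1 higher on the mixed coating, and the other 8 genes did not pass the threshold. In the edgeR quasi-likelihood fit (Benjamini-Hochberg adjustment over all genes, threshold 0.05), 2 of the 10 genes were called, against 2.53% of all genes tested. Lower calls made up 1.14% of all genes and higher calls 1.4%. As these values entered the choice of the genes, nothing is read from the comparison of shares. The count rested on single wells: it was 0 without LN-521 replicate 3 and 0 without mixed-coating replicate 3. Differences are given below as log2 fold changes, the mixed coating relative to LN-521 alone, with the standard error (SE) of the fit. Values per well are CPM, counts scaled to the TMM-corrected library size, in the order of replicates 1, 2 and 3.

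VGF (ENSG00000128564) encodes a precursor induced by nerve growth factor in neuronal cells, which is cut into several secreted peptides. Its level was 4.09, 4.14 and 6.42 CPM in the LN-521 wells and 2.89, 1.57 and 1.52 CPM in the mixed-coating wells. Every well with both laminins lay below every LN-521 well. LN-521 replicate 3 was the highest, and mixed-coating replicate 1 was the closest to the other coating. The difference was -1.30 ± 0.25 (SE), a 2.47-fold lower level, from 35 to 160 counts per library. When wells were left out in turn it ranged from -1.66 to -1.06. The call was lost without LN-521 replicate 3 (-1.06), mixed-coating replicate 2 (-1.16) or mixed-coating replicate 3 (-1.14). On the log2(TPM + 1) scale the difference was -0.68, and on log2(TPM + 0.1), with or without a filter, it was -1.12. VGF was called in none of these fits.

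CHGA (ENSG00000100604), the founding granin, which drives granule formation and gives rise to regulatory peptides, was 9.02, 8.72 and 10.03 CPM on LN-521. It was 6.36, 7.76 and 5.66 CPM on the mixed coating. The groups did not overlap, and the lowest LN-521 well and the highest mixed-coating well were both replicate 2. Its difference of -0.49 ± 0.13 (SE), a 1.41-fold lower level, fell short of the threshold. It passed with the replicate number as a block (-0.50) and without a filter on low counts (-0.50). It also passed without LN-521 replicate 1 (-0.51), LN-521 replicate 2 (-0.53) or mixed-coating replicate 2 (-0.62).

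The other granins did not pass the threshold. CHGB (ENSG00000089199), a granule protein related to CHGA, was 6.14, 6.35 and 7.79 CPM on LN-521 and 5.35, 6.28 and 6.29 CPM on the mixed coating. These ranges overlapped, with a difference of -0.18 ± 0.14 (SE). LN-521 replicate 3 was the highest well for VGF, CHGA and CHGB alike.

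SCG3 (ENSG00000104112), which anchors CHGA in the granule membrane, was the most expressed of the set at 69.3, 65.3 and 72.0 CPM on LN-521. On the mixed coating it was 66.0, 65.4 and 60.4 CPM, and the groups overlapped. With 1371 to 1795 counts per library it had the smallest error of the 10, and its difference was -0.11 ± 0.06 (SE). SCG5 (ENSG00000166922), also called 7B2, a chaperone of the convertase PCSK2, was 20.3, 20.2 and 19.3 CPM against 19.5, 23.0 and 20.7 CPM. Its difference was 0.08 ± 0.09 (SE). SCG5 was the member with an exon overlap in the annotation, with SCG5-AS1 on the other strand, and whether strand was used in counting is not given in the sources used here.

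SCG2 (ENSG00000171951), the precursor of secretoneurin, was near the lower limit of the test, with 13 to 25 counts per library. Its level was 0.784, 0.677 and 0.522 CPM on LN-521 and 0.819, 1.12 and 0.760 CPM on the mixed coating. The groups overlapped, and the difference of 0.45 ± 0.33 (SE) had the second largest error of the set.

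Neither processing enzyme passed the threshold. PCSK1 (ENSG00000175426), the convertase PC1/3 that makes the first cuts in many precursors, was 3.88, 4.25 and 4.54 CPM on LN-521 and 3.61, 3.14 and 3.84 CPM on the mixed coating. The groups did not overlap but almost met, and the difference was -0.26 ± 0.16 (SE). In TPM they overlapped, at 0.920 to 1.25 on LN-521 and 0.720 to 1.07 on the mixed coating. CPE (ENSG00000109472), carboxypeptidase E, was 18.9, 15.8 and 17.7 CPM against 19.1, 20.05 and 15.7 CPM. The groups overlapped widely, and the difference of 0.07 ± 0.10 (SE) changed sign, to -0.0046, without mixed-coating replicate 2.

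GAL (ENSG00000069482), the precursor of galanin, was 9.98, 10.3 and 10.2 CPM on LN-521 and 8.76, 9.42 and 7.43 CPM on the mixed coating. The LN-521 wells lay close together and all above the others, and the difference of -0.25 ± 0.11 (SE) did not pass the threshold. In TPM the groups overlapped, at 11.75 to 13.4 on LN-521 and 9.0 to 11.9 on the mixed coating. The 3 galanin receptor genes GALR1, GALR2 and GALR3 had at most 13 counts in any library and were not tested.

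TACR1 (ENSG00000115353), the neurokinin 1 receptor through which substance P acts, was 0.958, 0.451 and 0.281 CPM on LN-521 and 1.49, 1.97 and 2.70 CPM on the mixed coating. All wells with both laminins lay above all LN-521 wells. The counts behind these levels were 22, 12 and 7 in the LN-521 wells against 31, 44 and 64 in the others. The difference was 1.89 ± 0.36 (SE), a 3.70-fold higher level, and it ranged from 1.57 to 2.47 when wells were left out in turn. The call was lost without LN-521 replicate 3 (1.57) or mixed-coating replicate 3 (1.63). On log2(TPM + 0.1) without a filter, the only TPM fit that tested TACR1, the difference was 1.47 ± 0.28 (SE) and was not called. TAC1, which encodes substance P, had 3 to 15 counts per library and a difference of 0.36 ± 0.51 (SE; edgeR adjusted p = 0.810). The tachykinin precursor gene TAC3 was at 8.31 ± 1.36 TPM on LN-521 and 9.15 ± 0.208 TPM on the mixed coating (SD, n = 3 each), with a difference of 0.06 ± 0.14 (SE; edgeR adjusted p = 0.895). TAC3 was named after its values were seen, and it has an exon overlap with MYO1A on its own strand.

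**Figure D2:**
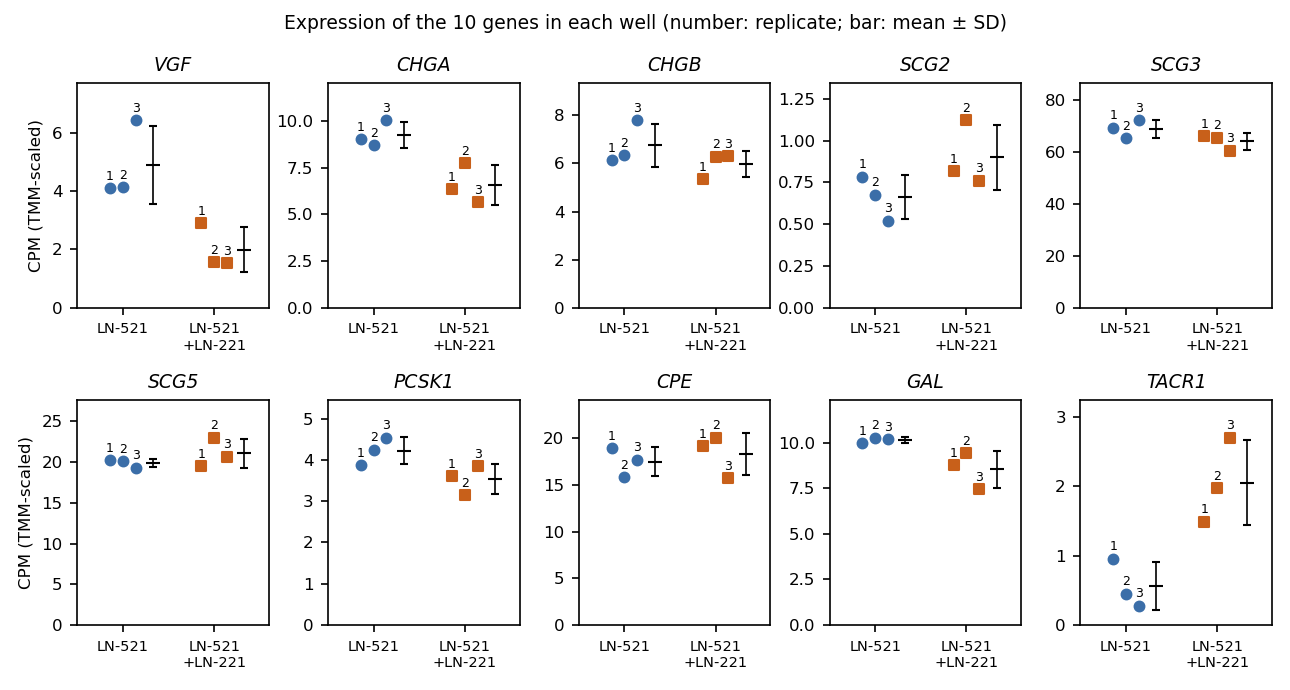
CPM of each gene in each well, on linear axes that start at 0, with circles for LN-521, squares for LN-521+LN-221, the replicate number above each point and the mean ± SD of 3 wells beside them. The wells separate by coating for VGF, CHGA, PCSK1 and GAL, lower on the mixed coating, and for TACR1, higher.

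Across the set, the CPM of the 2 coatings did not overlap in 5 of the 10 genes, against 19.9% of all genes tested. They were lower on the mixed coating in 4 (all genes: 9.68%) and higher in 1 (all genes: 10.2%). In TPM the wells did not overlap in 3 of the 10, against 12.8% of all genes tested. VGF and CHGA were the 2 lower ones (all genes: 4.94%) and TACR1 the 1 higher (all genes: 7.84%). The median difference of the 10 genes was -0.14, where that of all genes tested was -0.0011. The genes were chosen with this comparison known, so nothing is read from these shares or medians. In CPM, replicate 1 was the well of each coating that lay nearest to the other coating, for both VGF and TACR1. In TPM the nearest well was replicate 2 for VGF on LN-521 (1.83) and for TACR1 on the mixed coating (0.33). In a principal component analysis of the log2 CPM of all tested genes, LN-521 replicate 1 stood nearest to the mixed coating on the first component. It was at -6.10, against -13.4 and -15.2 for replicates 2 and 3, with the mixed coating at 11.0 to 11.9.

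**Figure D3:**
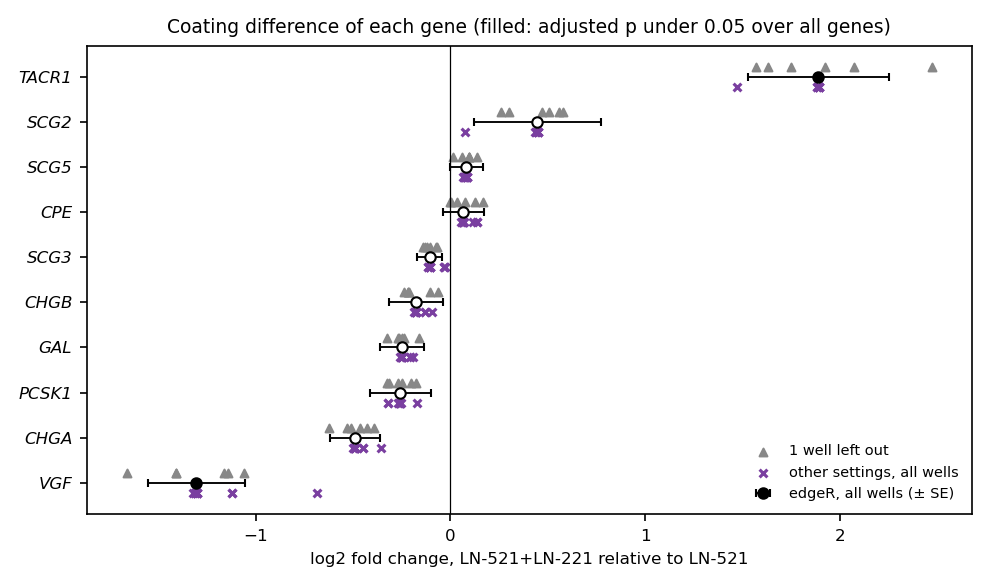
Log2 fold change of each gene (the mixed coating relative to LN-521 alone) with its SE in the edgeR fit of all wells (circles, filled where the adjusted p over all genes is under 0.05), in the 6 fits that leave out 1 well (triangles) and in the other settings with all wells (crosses). VGF stays between -1.66 and -0.68 and TACR1 between 1.47 and 2.47, and CPE is the gene that crosses 0.

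The other genes of the pathway were taken from 7 lists drawn up by function, with 95 genes, of which 72 were tested. The lists, too, were drawn up with earlier results of these data known. Of the 72, 7 (edgeR) changed at an adjusted p under 0.05, against 2.53% of all genes tested. The 7 were 4 without LN-521 replicate 3, mixed-coating replicate 2 or mixed-coating replicate 3, where the calls over all genes went from 446 to 201, 198 and 194. Those over all genes were 290 without mixed-coating replicate 1 and 1179 without LN-521 replicate 1. In each of the 3 limma fits on TPM none of the 7 was called, SYT4, NTS and ADM included, with 1 to 33 calls over all genes (ADCYAP1 was tested in 1 of these fits). All 7 calls fell in 2 lists, the other neuropeptide precursors and the dense core vesicle genes.

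Of 24 other neuropeptide precursors, 11 were tested. In edgeR 3 were called lower and 1 higher (all genes: 1.14% and 1.4%), with a median difference of -0.036 over the list. Of the 11 differences, 6 were below 0 and 5 above. NTS, the precursor of neurotensin, was 22.5, 21.2 and 24.6 CPM on LN-521 and 14.4, 14.2 and 14.7 CPM on the mixed coating. The groups lay well apart, and NTS fell by 0.65 ± 0.09 in log2 units (SE; edgeR adjusted p = 2.63e-04). ADM, the precursor of the vasodilator adrenomedullin, was 25.3, 25.5 and 25.4 CPM against 14.6, 17.8 and 14.9 CPM. It fell by 0.69 ± 0.09 (SE; edgeR adjusted p = 1.96e-04). NMU, the precursor of neuromedin U and the list's highest gene at 30.05 ± 3.55 TPM on LN-521 (SD, n = 3), fell by 0.36 ± 0.09 (SE; edgeR adjusted p = 0.0370). NMU kept its call in 1 of the 6 fits that leave out a well, the one without LN-521 replicate 1. ADCYAP1, the precursor of the peptide PACAP, went from 10, 13 and 13 counts to 23, 38 and 40. It rose by 1.63 ± 0.31 in log2 units (SE; edgeR adjusted p = 0.00601). Its call was lost without mixed-coating replicate 2 or replicate 3. Its level went from 0.263 ± 0.0907 to 0.543 ± 0.153 TPM (SD, n = 3 each), and on log2(TPM + 0.1) without a filter the difference was 0.82 ± 0.27 (SE) and was not called. ADCYAP1 overlaps 2 genes on the other strand, so with the strand setting unknown its reads are uncertain.

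Of 23 dense core vesicle genes, 21 were tested. In edgeR 2 were called lower and 1 higher (all genes: 1.14% and 1.4%), and the list's median was -0.068. Of the 21 differences, 16 were below 0 and 5 above, where all genes tested had 8859 below and 8749 above. SYT4, a synaptotagmin of dense core vesicles that does not bind calcium in the usual way, was 121, 103 and 107 CPM on LN-521 and 76.5, 70.1 and 60.0 CPM on the mixed coating. It fell by 0.68 ± 0.08 in log2 units (SE; edgeR adjusted p = 1.56e-04). PTPRN, a granule membrane protein also known as the islet autoantigen IA-2, was 28.6, 31.2 and 31.6 CPM against 24.6, 23.7 and 22.8 CPM. It fell by 0.36 ± 0.08 (SE; edgeR adjusted p = 0.0138), and the call was lost without LN-521 replicate 3, mixed-coating replicate 2 or mixed-coating replicate 3. SYT7, a calcium sensor of slow vesicle release, moved the other way, from 20.04, 26.2 and 18.8 CPM to 31.4, 32.1 and 32.6 CPM. It rose by 0.56 ± 0.10 (SE; edgeR adjusted p = 0.00494), and this call was lost without LN-521 replicate 3. CADPS, which primes dense core vesicles for release, was at -0.08 ± 0.08 (SE; edgeR adjusted p = 0.727). By mean TPM over all 6 wells the list's highest genes were RAB2A, at 0.00 ± 0.07, and CCDC186, at 0.08 ± 0.06 (SE), both of which act in granule maturation. They did not pass (edgeR adjusted p = 0.997 and 0.575). PTPRN has an antisense neighbour, and SYT7 overlaps a non-coding gene on its own strand.

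None of the 11 other prohormone processing enzymes passed the threshold, all 11 being tested in edgeR, with 1 at an unadjusted p under 0.05 and 0 calls in DESeq2. Their median difference was 0.011. FURIN, the convertase of the constitutive pathway, stood at 23.7 ± 1.01 CPM in LN-521 wells against 20.6 ± 0.337 CPM in mixed-coating wells (SD, n = 3 each), a difference of -0.20 ± 0.08 (SE; edgeR adjusted p = 0.239). PAM, which amidates peptide ends, was the list's highest gene at 30.3 ± 7.16 TPM on LN-521 (SD, n = 3), with a difference of -0.13 ± 0.07 (SE; edgeR adjusted p = 0.381). CPD, a carboxypeptidase related to CPE that works in the trans-Golgi network, followed at 25.1 ± 6.61 TPM (SD, n = 3), with a difference of 0.11 ± 0.05 (SE; edgeR adjusted p = 0.389). PCSK2, the convertase served by SCG5, was low at 23 to 50 counts per library and differed by 0.08 ± 0.28 (SE; edgeR adjusted p = 0.936). Of the granin-like genes outside the set, PCSK1N, which encodes an inhibitor of PCSK1, had 23 to 42 counts per library and differed by -0.26 ± 0.26 (SE; edgeR adjusted p = 0.710). GNAS, whose locus also encodes the granin NESP55, differed by 0.06 ± 0.05 (SE; edgeR adjusted p = 0.645), and its gene count does not separate NESP55 from the G protein subunit.

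None of the tested neuropeptide receptors outside the set passed the threshold. Of 18 listed, 13 were tested, with 1 at an unadjusted p under 0.05 in edgeR, 0 calls in DESeq2 and a median of -0.092. C1QBP and C3AR1 have been described as receptors of a VGF peptide. C1QBP, a mainly mitochondrial protein, was the list's highest gene at 195 ± 25.1 TPM on LN-521 (SD, n = 3) and differed by -0.07 ± 0.06 (SE; edgeR adjusted p = 0.636). C1QBP has an exon overlap with DHX33 on its own strand. C3AR1 had 1 count in a single LN-521 well and 0 in the others. GRPR, the receptor of gastrin-releasing peptide, came second at 79.04 ± 6.61 TPM on LN-521 (SD, n = 3), with a difference of -0.11 ± 0.05 (SE; edgeR adjusted p = 0.306).

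The regulators known for this pathway were all tested and none passed. REST, a repressor that keeps many granin genes silent outside neurons, was 247, 223 and 222 CPM on LN-521 and 257, 259 and 254 CPM on the mixed coating. Its groups did not overlap, and the difference of 0.16 ± 0.05 (SE; edgeR adjusted p = 0.173) passed the threshold without LN-521 replicate 1, the highest of its coating, where it was 0.21. CREB1, a factor that binds the cyclic AMP response element, differed by -0.03 ± 0.07 (SE; edgeR adjusted p = 0.885). The list of 9 REST and CREB regulators had a median of -0.034, with 2 at an unadjusted p under 0.05 in edgeR and 0 calls in DESeq2. Among the neurotrophins and their receptors 5 of 8 genes were tested, with a median of 0.064, 0 calls in edgeR or DESeq2 and 0 at an unadjusted p under 0.05. NGFR, the list's highest gene, was at -0.06 ± 0.10 (SE; edgeR adjusted p = 0.848) and NTF4 at -0.24 ± 0.17 (SE; edgeR adjusted p = 0.570).

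Outside the set, genes with the motif were set beside all genes with a window. Of 411 tested genes outside the 10 with TGACGTCA before a start, 3 were called higher and 7 lower, 2.43%, with a median difference of -0.0011. Among the 12406 tested genes with a RefSeq window, 166 were called higher and 150 lower, 2.55%, with a median of -0.0031. Lower calls were 1.7% of the genes with the motif and 1.21% of all with a window, a difference that was not tested. None of the 7 pathway genes called holds TGACGTCA in its window, and SYT7 had no window.

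**Figure D4:**
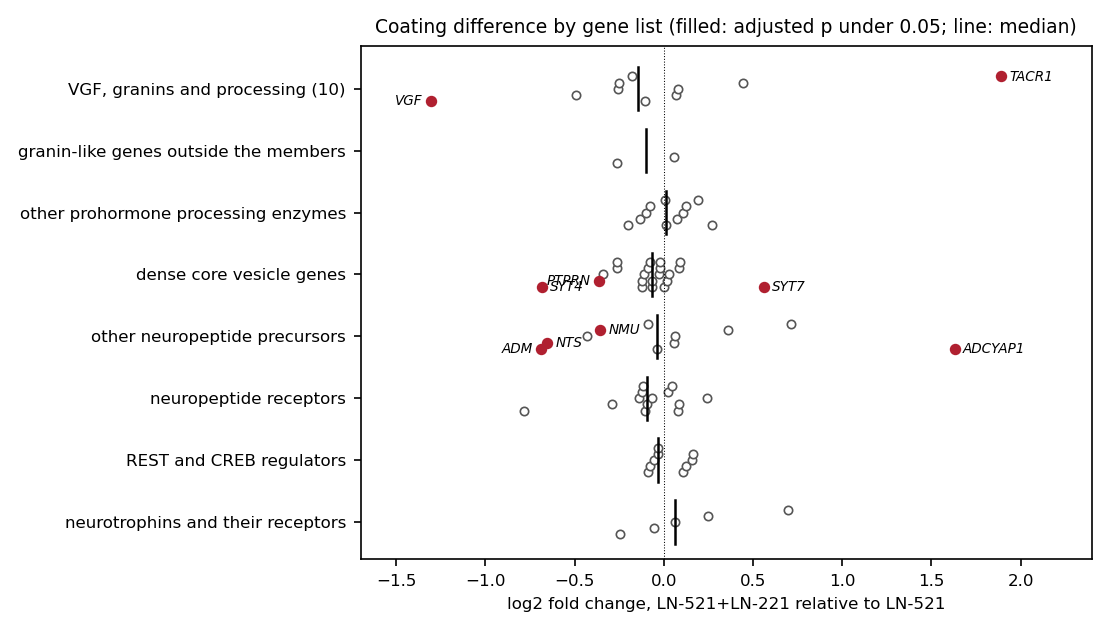
Log2 fold change (the mixed coating relative to LN-521 alone) of every tested gene of the set and of the 7 related lists, with a line at each list's median. Filled points have an adjusted p under 0.05 over all genes: VGF and TACR1 in the set, SYT4, PTPRN and SYT7 among the vesicle genes, and ADM, NTS, NMU and ADCYAP1 among the precursors.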

How the data were processed

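RNA from 6 wells was read in pairs of 150 bp from stranded total RNA libraries, per the labels' protocols. The submitters' processing notes name cutadapt, STAR 2.5.2b, RSEM 1.2.31 and the build hg38. The gene annotation and the strand setting are not given in the sources used here. The authors deposited estimated counts per gene (6.08% to 6.67% of values per library are not whole; no member has any such value). The authors' second deposited table holds TPM, scaled by them for length and to a common total. Genes of the 7SL and 7SK families, ribosomal RNA and mitochondrial genes took 30.7% to 37.9% of the TPM. Symbols were given for 68% of the gene IDs, and all members and listed genes matched.

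Estimated counts were rounded, filtered with filterByExpr (minimum count 10), scaled by TMM and tested with edgeR 4.0.16 (R 4.3.3; quasi-likelihood, robust, no replicate block). The SE is the log2 fold change divided by the square root of F. Alternatives used limma 3.58.1, on log2(TPM + 1) and log2(TPM + 0.1), and DESeq2 1.42.0. On simulated counts for this comparison (17345 genes) the test recovered 98% of changes of 1 and 81% of changes of 0.5 on the log2 scale, with 3.76% false calls. These shares are not split by count. They therefore do not give the recovery for genes with counts as low as those of TACR1 and SCG2.

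The members and lists were chosen with earlier results of these data known. Named were all members, list genes with an adjusted p under 0.05, the 2 highest genes of each list by TPM, and the fixed genes PCSK1N, GNAS, FURIN, PCSK2, PAM, REST, CREB1, TAC1, GALR2, C1QBP, C3AR1, PTPRN and CADPS. The rule also takes, for VGF and TACR1, the 3 genes with the most similar pattern. The motifs CAGCACC and GGACAG, parts of the REST site, and TATAAA were searched too: 0, 2 and 3 of the 7 members with a window hold them, and 6.16%, 17.2% and 10.7% of all windows. Neural progenitor markers summed to 64.8 to 75.9 TPM on LN-521 and 72.4 to 73.0 TPM on LN-521+LN-221, and trophoblast and amnion markers to 11.5 to 13.9 and 11.2 to 12.45 TPM. Beside the 5 neuroendocrine markers given, 1 further gene of that list is not reported here and is in none of its sums. Replicate wells differed by more than sampling noise (chi-square per degree of freedom at least 2.85).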

Additional observations from a re-analysis of the deposited data

How the results depend on the processing

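The 446 calls over all genes were 718 without a filter on low counts (46.8% higher), 33 with limma on log2(TPM + 1) (81.8% higher, against 55.2%), 16 on log2(TPM + 0.1) and 1 on log2(TPM + 0.1) without a filter. Leaving out each well gave 194 to 1179. The 2 calls among the 10 genes were 0 in each of the 3 TPM fits and 0 to 3 when a well was left out. In the 2 TPM fits with a filter 8 of the 10 were tested, TACR1 and SCG2 not among them, and ADCYAP1 was not tested there either. The 5 of 10 genes with coatings apart in CPM were 3 in TPM, a setting chosen after seeing the data. The 7 calls in the pathway lists were 0 in each TPM fit and 4 to 8 when a well was left out, and 7 in every other setting with all wells. What caused these changes was not tested. With the replicate block 646 genes were called, 3 of them among the 10 (CHGA added), and no other call among the 10 genes or the lists changed. Same-numbered wells correlated at 0.0684, -0.0316 and -0.0185 in their deviations from the mean of their coating. These values show no pairing by number, but with 3 wells per coating they cannot exclude one. CPE reversed to -0.0046 without LN-521+LN-221 replicate 2, in a range up to 0.165 over the 6 fits. Of the results for single genes of the set, 89 kept their direction and call, 4 were weaker and 2 stronger under the 10 settings with all wells. With a well left out, 51 kept them, 5 were weaker, 3 stronger and 1 reversed. The order of levels kept 44 of 45 pairs with CPM in place of TPM (CPE above GAL) and 44 in the LN-521+LN-221 wells. It kept 45 without each LN-521 well, a setting chosen after seeing the data. The lowest counts of the set were those of TACR1 and SCG2, at 7 to 64 and 13 to 25 per library.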

Other observations

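The genes whose log2 CPM over the 6 wells was most like that of VGF were TMEM132B (Pearson r = 0.999), EMSY-DT (0.994) and TCF12 (0.994), and those most like TACR1 were C14orf132 (0.998), IGDCC4 (0.995) and ACOXL (0.991). With 6 wells and 17608 genes such values are common: 335 genes with a symbol had r over 0.9 with VGF and 443 with TACR1. As they were picked for this likeness, their coating differences, in the direction of VGF or TACR1 through that choice, are given without a test. They were -0.24 ± 0.06 for TMEM132B, -0.33 ± 0.11 for EMSY-DT and -0.12 ± 0.05 for TCF12, and 0.31 ± 0.07 for C14orf132, 0.32 ± 0.10 for IGDCC4 and 0.51 ± 0.10 for ACOXL (log2, ± SE). Each of these 6 was smaller than that of VGF or TACR1.

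Of the neuron markers, STMN2, a microtubule regulator of growing axons, rose by 0.47 ± 0.07 (SE; edgeR adjusted p = 0.00130) and DCX, a microtubule protein of migrating neurons, fell by 0.43 ± 0.11 (SE; edgeR adjusted p = 0.0492). The other 5 of the 7 markers, all tested, did not pass the threshold.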
